A study of Mus musculus with 4 samples.

Results

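The promoters of 8 genes that write or read histone acetylation were followed in chromatin of the mouse left ventricle. The genes were the acetyltransferases Ep300, Crebbp, Kat2a, Kat2b, Kat5 and Kat6a and the acetyl-lysine readers Brd2 and Brd3. They were chosen by name, with earlier results of these data known. Their rows were taken from a table of promoter counts through the RefSeq ID of each row. Where a gene had several IDs, the one with the highest mean count stood for it. The 8 genes are 8 of the 23631 genes in the table, and all 8 passed the mean count of at least 10 that 22835 genes passed.

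Male C57BL6 mice aged 10 to 12 weeks had transverse aortic constriction (TAC), an operation that narrows the aorta and puts the left ventricle under pressure load, or a sham operation. Trichostatin A (TSA), a histone deacetylase inhibitor, or its solvent DMSO (Veh) was then injected 2 times daily over 4 weeks, each at 0.6 mg per kg per day per the labels. The groups were TAC TSA, TAC Veh, Sham TSA and Sham Veh, and DMSO was the solvent in every one. Each group had 1 sequenced library made by chromatin immunoprecipitation of acetylated histone H3 from chopped left ventricle, and no source used here gives the number of animals behind a library. The antibody recognises acetylated H3 without regard to which gene product acetylated it, and the values below are acetylation at the genes' own promoters, not their RNA, protein or activity. Chopped ventricle holds many cell types, so that fewer cells of a type and less acetylation per cell cannot be told apart.

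Histone acetyltransferases move an acetyl group onto lysines of histone tails, which loosens chromatin and marks active promoters and enhancers. Bromodomain and extra-terminal (BET) proteins bind acetylated lysines and bring transcription elongation machinery to marked genes. Deacetylase inhibitors act on the same marks from the other side by slowing their removal. In heart muscle, p300 is a known coactivator of GATA4 and MEF2 factors in hypertrophic growth, and BET inhibitors are known to blunt that growth in mice.

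Promoter sequences of 7 of the 8 genes, with 11 transcription starts, were matched in a RefSeq table of the GRCm38.p6 assembly. Each window runs from 250 bases before to 50 bases after the start. The windows below are shown because they span the sequence range of the group, with Ep300 and Crebbp as the paralog pair, both Kat2b starts as the gene whose counts moved most, and the most upstream of the 3 Brd2 starts as the strongest gene. Each is read 5′ to 3′ on the strand of the gene, and capitals mark CpG dinucleotides, the sites where mammalian DNA is methylated and which cluster in CpG islands. They stand at chr15:81585964-81586263 (plus strand, Ep300), chr16:4213355-4213654 (minus strand, Crebbp), chr17:53566721-53567020 and chr17:53583876-53584175 (plus strand, Kat2b, upstream and downstream start) and chr17:34122558-34122857 (minus strand, Brd2).
Ep300: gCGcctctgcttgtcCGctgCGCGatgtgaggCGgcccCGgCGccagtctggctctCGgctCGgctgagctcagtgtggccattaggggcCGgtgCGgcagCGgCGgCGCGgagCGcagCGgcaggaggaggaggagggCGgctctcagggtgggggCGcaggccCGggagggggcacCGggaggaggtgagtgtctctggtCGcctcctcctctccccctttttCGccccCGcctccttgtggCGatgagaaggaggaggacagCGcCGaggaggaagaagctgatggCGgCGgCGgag
Crebbp: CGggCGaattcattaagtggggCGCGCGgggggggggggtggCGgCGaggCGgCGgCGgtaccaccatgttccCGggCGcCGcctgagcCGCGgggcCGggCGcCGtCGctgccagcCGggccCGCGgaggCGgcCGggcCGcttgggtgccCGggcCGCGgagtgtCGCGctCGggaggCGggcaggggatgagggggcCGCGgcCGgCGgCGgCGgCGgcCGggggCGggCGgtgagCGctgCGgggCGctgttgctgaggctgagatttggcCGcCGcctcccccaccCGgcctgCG
Kat2b upstream start: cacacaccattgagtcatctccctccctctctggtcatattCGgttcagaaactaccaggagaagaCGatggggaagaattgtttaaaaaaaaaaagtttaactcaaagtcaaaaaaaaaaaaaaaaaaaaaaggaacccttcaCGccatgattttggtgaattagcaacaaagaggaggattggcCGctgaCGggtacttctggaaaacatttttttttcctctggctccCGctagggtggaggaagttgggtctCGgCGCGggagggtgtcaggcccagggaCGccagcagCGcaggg
Kat2b downstream start: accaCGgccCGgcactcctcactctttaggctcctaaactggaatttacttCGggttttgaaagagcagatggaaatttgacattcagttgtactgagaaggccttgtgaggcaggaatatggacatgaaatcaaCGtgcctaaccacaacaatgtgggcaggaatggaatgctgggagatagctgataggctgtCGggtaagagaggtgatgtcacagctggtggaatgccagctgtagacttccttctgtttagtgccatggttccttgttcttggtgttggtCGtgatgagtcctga
Brd2: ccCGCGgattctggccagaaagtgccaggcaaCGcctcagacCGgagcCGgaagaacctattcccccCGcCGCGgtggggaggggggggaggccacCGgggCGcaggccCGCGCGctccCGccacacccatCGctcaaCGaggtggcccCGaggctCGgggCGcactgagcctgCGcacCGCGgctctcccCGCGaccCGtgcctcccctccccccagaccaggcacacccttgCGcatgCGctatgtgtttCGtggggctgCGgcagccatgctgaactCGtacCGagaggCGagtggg

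The Crebbp window was 82.0% G and C with 49 CpGs, and the Ep300 window 72.3% with 30 CpGs. The Brd2 window shown held 32 CpGs, and that of Brd3 46. The Kat2b windows were the poorest of the 11, with 11 CpGs and 47.0% G and C at the upstream start and 6 CpGs and 48.3% at the downstream start. Over all 32851 promoters of the table the median was 7 CpGs and the upper quartile 20, so that the Kat2b windows lay near the middle of mouse promoters while Crebbp, Brd3 and the Brd2 window shown exceeded the 90th percentile of 31. Kat2a held 19 CpGs, and the Kat5 starts held 29 and 19.

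Short motifs were searched on both strands of the 300-base windows. The GC box core GGGCGG was in 6 of the 11 windows, against 35.7% of all promoters, and CCAAT was in 2 (the upstream Kat2b start and 1 Kat5 start), against 37.4%. TATAAA was in 0 of 11, against 13.6% of all promoters, and the cyclic AMP response element TGACGTCA in 0, against 1.79%. The ETS core CCGGAAGT was in 1 window, where the Kat5 start with 19 CpGs held it at 2 places, against 3.89% of promoters. None of these 5 motifs contains another, and a match describes the letters only.

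The total promoter count over all RefSeq IDs was 6842296 in TAC TSA, 8873302 in TAC Veh, 9905553 in Sham TSA and 9612616 in Sham Veh, and TAC TSA was thus the shallowest library. Promoters of 1461 olfactory and vomeronasal receptor genes, used here as a measure of background, held 0.680% of counts in TAC TSA, 0.507% in TAC Veh, 0.428% in Sham TSA and 0.422% in Sham Veh. Scaling used trimmed mean of M-values (TMM) factors, which set the bulk of promoters level between libraries, and the results are given as scaled counts. A log2 ratio of scaled counts is followed by its exact 95% conditional interval, which covers counting error between 2 libraries and not the spread between animals. The word apart is used for promoters whose ratio reached 1.5-fold and whose interval excluded 0 on the log2 scale. The labels tie the sham libraries, but not the TAC libraries, to an earlier record, and whether the libraries were made together is not known. If they were not, that difference cannot be told apart from the operation.

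All 8 promoters were strongly acetylated in every library. In mean scaled count, Brd2 stood at 1342 and Ep300 at 773. The percentiles given here rank the mean unscaled count among the 22835 genes, with Brd2 at 99.96 and Ep300 at 98.0. Brd3 followed at 585 (percentile 90.1), Kat2b at 539 (87.2), Crebbp at 479 (80.4), Kat2a at 462 (78.9), Kat6a at 459 (78.2) and Kat5 at 412 (72.4). No source used here gives the width of the counting window, so these are levels per promoter window as deposited. Brd2 exceeded Ep300, and Ep300 exceeded Brd3, beyond counting error in 4 of 4 libraries. Among the lower neighbours the order was not fixed. Kat2b exceeded Crebbp beyond counting error in 3 of 4 libraries, Brd3 exceeded Kat2b, Crebbp exceeded Kat2a and Kat6a exceeded Kat5 in 1 of 4 each, and Kat2a exceeded Kat6a in 0 of 4.

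The 8 genes together held 0.0802% of gene counts in TAC TSA, 0.0821% in TAC Veh, 0.0817% in Sham TSA and 0.0805% in Sham Veh, and the exact binomial 95% intervals of these shares overlap. Variation over the libraries differed between the genes. From the lowest to the highest library, Brd2 spanned 0.02, Crebbp 0.05, Kat6a 0.09 and Brd3 0.12 on the log2 scale, which placed Brd2 at percentile 0.0742 and Crebbp at percentile 0.989 of the range among 12131 genes whose mean count reached 200. Ep300 spanned 0.20, Kat2a 0.24, Kat5 0.29 and Kat2b 0.46, the last at percentile 96.1. Deeper-counted promoters such as Brd2 vary less by counting alone, and the part of depth in the order of these ranges was not tested. The ranges are those under TMM and depend on the scaling. With scaling on genes of mean count 200 or more, Brd2 in TAC TSA over Sham TSA was at 0.118 (0.004 to 0.232), an interval above 0. Crebbp was at 0.13 (−0.06 to 0.32) there. With loess scaling Brd2 was at 0.10 (−0.01 to 0.22).

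**Figure D1:**
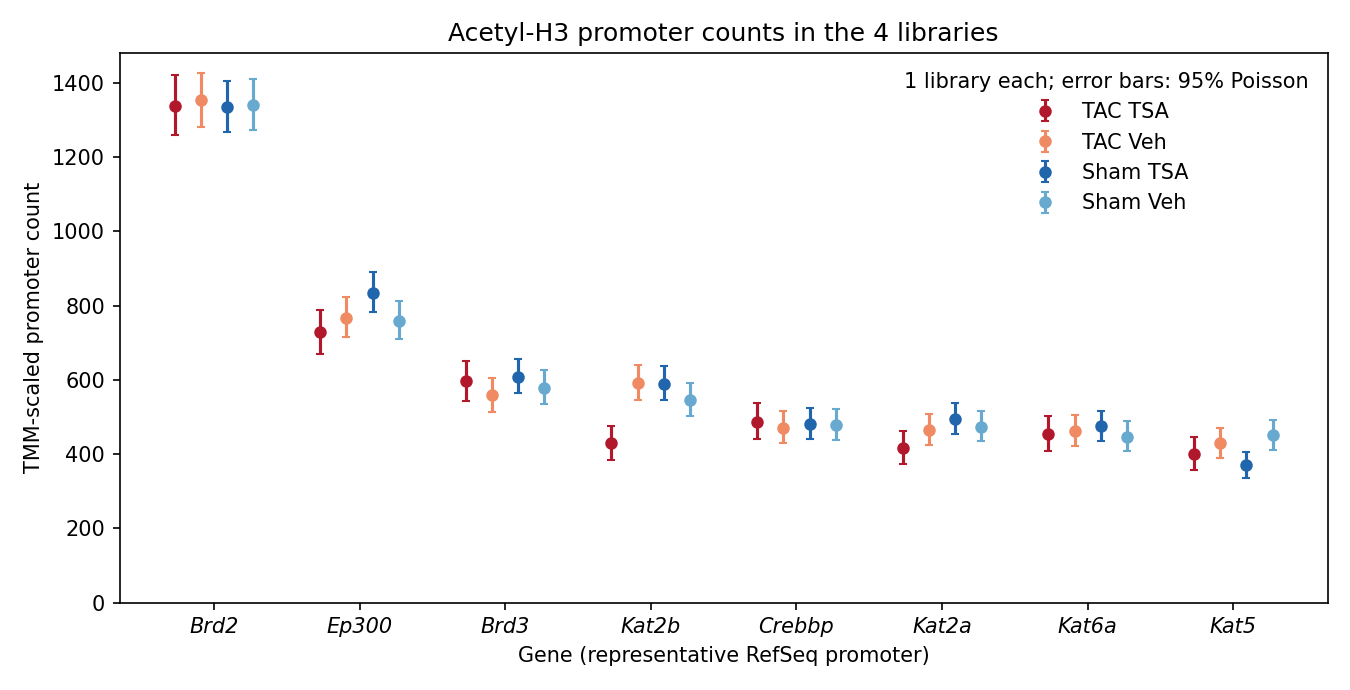
Scaled promoter counts of the 8 genes in the 4 libraries, with TAC TSA, TAC Veh, Sham TSA and Sham Veh as points in that order and error bars for the 95% Poisson interval of the count. Brd2 stays near 1342 in every library, while Kat2b stands at 429 in TAC TSA and between 546 and 591 in the other libraries.

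Ep300 encodes p300, a large coactivator acetyltransferase that acetylates H3 at enhancers and promoters. Its scaled counts were 728 in TAC TSA, 768 in TAC Veh, 835 in Sham TSA and 760 in Sham Veh, from 589, 784, 929 and 827 reads. TAC TSA was the lowest library and Sham TSA the highest. Its log2 ratio was 0.02 (−0.13 to 0.16) in TAC Veh over Sham Veh and −0.08 (−0.23 to 0.08) in TAC TSA over TAC Veh. For TAC TSA over Sham TSA it was −0.20 (−0.35 to −0.05), an interval below 0, at percentile 25.1 of genes whose mean count reached 200, whose median in that comparison was −0.11. With scaling to the total promoter count it was −0.13 (−0.28 to 0.02) and with loess scaling on mean count −0.08 (−0.23 to 0.07).

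Crebbp encodes CBP, the paralog of p300. It had 487 scaled counts in TAC TSA, 471 in TAC Veh, 481 in Sham TSA and 479 in Sham Veh, from 394, 481, 535 and 521 reads. No library stood apart from the others, and its ratios lay between −0.02 and 0.05 on the log2 scale in the 5 pairwise comparisons. The Ep300 to Crebbp count ratio within a library, which needs no scaling, was 1.49 (1.31 to 1.70) in TAC TSA, 1.63 (1.45 to 1.83) in TAC Veh, 1.74 (1.56 to 1.93) in Sham TSA and 1.59 (1.42 to 1.77) in Sham Veh. These 4 intervals overlap one another.

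Kat2a encodes GCN5, the catalytic subunit of the SAGA and ATAC complexes that acetylate H3 at lysine 9. It had 417 scaled counts in TAC TSA, 464 in TAC Veh, 493 in Sham TSA and 474 in Sham Veh, from 337, 474, 549 and 516 reads. TAC TSA was again lowest, with a log2 ratio of −0.16 (−0.36 to 0.05) against TAC Veh and −0.24 (−0.44 to −0.05) against Sham TSA. Against Sham TSA the interval included 0 under total count scaling, at −0.17 (−0.37 to 0.02), or loess scaling, at −0.12 (−0.32 to 0.08).

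Kat2b encodes PCAF, the paralog of GCN5 and its alternative in the same complexes. It had 429 scaled counts in TAC TSA, 591 in TAC Veh, 590 in Sham TSA and 546 in Sham Veh, from 347, 603, 656 and 594 reads, so that TAC TSA stood below the other 3 libraries. It was 1.38-fold lower in TAC TSA than in TAC Veh (log2 ratio −0.46, −0.66 to −0.27), at percentile 1.58 of all genes and 0.80 of those with a mean count of at least 200. In TAC TSA over Sham TSA it was also at −0.46 (−0.65 to −0.27), and in TAC TSA over Sham Veh at −0.35 (−0.54 to −0.15), values that all use the TAC TSA library. Without that library Kat2b did not differ beyond counting error, at 0.11 (−0.05 to 0.28) in TAC Veh over Sham Veh and 0.11 (−0.05 to 0.27) in Sham TSA over Sham Veh. The Kat2b interval in TAC TSA over TAC Veh lay below 0 under every scaling run, from −0.38 with loess to −0.85 with scaling to receptor promoters. The Kat2b to Kat2a ratio within a library was 1.03 (0.884 to 1.2) in TAC TSA, 1.27 (1.13 to 1.44) in TAC Veh, 1.19 (1.07 to 1.34) in Sham TSA and 1.15 (1.02 to 1.30) in Sham Veh. Its log2 change in TAC TSA over TAC Veh was −0.31 (−0.58 to −0.03). The change spanned 0 in TAC TSA over Sham TSA, at −0.21 (−0.49 to 0.06), and in TAC TSA over Sham Veh, at −0.16 (−0.44 to 0.11).

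A second RefSeq ID of Kat2b, NM_001190846, is counted at a window of its own and did not share the lower value of the main ID, NM_020005. It had 121 scaled counts in TAC TSA, 93.1 in TAC Veh, 103 in Sham TSA and 120 in Sham Veh, from 98, 95, 115 and 131 reads. TAC TSA and Sham Veh were the higher pair here, and the log2 ratio of TAC TSA over TAC Veh was 0.38 (−0.04 to 0.80), with an interval that includes 0. Within a library, the second window held 0.282 (0.223 to 0.354) of the count of the first in TAC TSA, 0.158 (0.126 to 0.196) in TAC Veh and 0.175 (0.143 to 0.214) in Sham TSA, and 0.221 (0.181 to 0.267) in Sham Veh. That ratio exceeded in TAC TSA its value in TAC Veh by 0.84 (0.39 to 1.29) on the log2 scale and its value in Sham TSA by 0.69 (0.26 to 1.12), and it was lower in TAC Veh than in Sham Veh, at −0.49 (−0.90 to −0.07). Against Sham Veh the TAC TSA value was at 0.36 (−0.07 to 0.78), which spans 0. Which of the Kat2b sequences above belongs to which ID is not given in the promoter table.

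**Figure D2:**
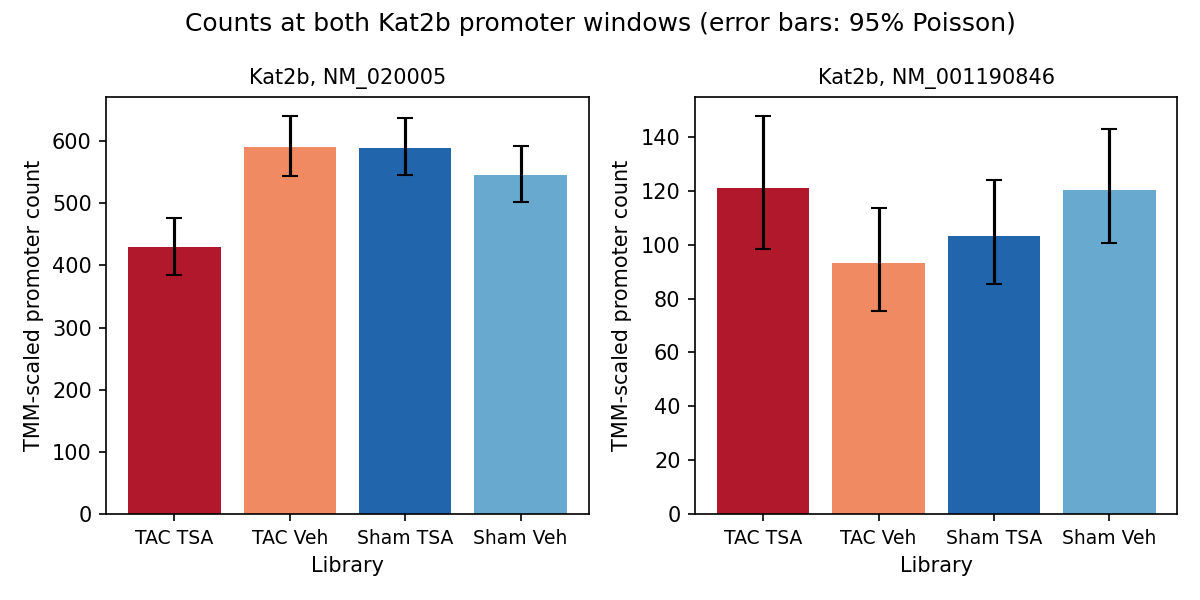
Scaled counts at the 2 Kat2b windows in TAC TSA, TAC Veh, Sham TSA and Sham Veh, one panel per RefSeq ID with its own vertical axis and 95% Poisson error bars. The main window is lowest in TAC TSA, at 429, while the weaker window is at 121 in TAC TSA and 93.1 in TAC Veh.

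Kat5 encodes Tip60, the catalytic subunit of the NuA4 complex, which acetylates histone H4 and H2A variants. It had 401 scaled counts in TAC TSA, 429 in TAC Veh, 369 in Sham TSA and 450 in Sham Veh, from 324, 438, 411 and 490 reads. Sham TSA was the lowest library and Sham Veh the highest. The log2 ratio of Sham TSA over Sham Veh was −0.29 (−0.48 to −0.09), 1.22-fold lower, at percentile 8.19 of all genes and 0.948 of those with a mean count of at least 200. In TAC TSA over TAC Veh it was −0.10 (−0.31 to 0.11). In TAC TSA over Sham TSA it was 0.12 (−0.10 to 0.33), and 0.23 (0.02 to 0.45) with loess scaling.

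Kat6a encodes MOZ, a MYST-family enzyme that acetylates H3. It had 454 scaled counts in TAC TSA, 461 in TAC Veh, 475 in Sham TSA and 447 in Sham Veh, from 367, 471, 528 and 486 reads, and no interval of its 5 ratios excluded 0. The Kat5 to Kat6a ratio was 0.883 (0.758 to 1.03) in TAC TSA, 0.930 (0.815 to 1.06) in TAC Veh, 0.778 (0.683 to 0.887) in Sham TSA and 1.01 (0.888 to 1.15) in Sham Veh. Kat5 was thus below Kat6a beyond counting error in Sham TSA, and the log2 change of the ratio in Sham TSA over Sham Veh was −0.37 (−0.63 to −0.11).

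Brd2 and Brd3 encode widely expressed BET proteins with paired bromodomains. Brd2 had 1339 scaled counts in TAC TSA, 1353 in TAC Veh, 1335 in Sham TSA and 1341 in Sham Veh, from 1083, 1381, 1485 and 1460 reads. With TMM its 5 log2 ratios lay between −0.02 and 0.01. The interval in TAC TSA over TAC Veh, −0.13 to 0.10, is narrow because of its high count. In TAC TSA over Sham TSA the median of genes whose mean count reached 200 was −0.11, and Brd2 was at percentile 79.8 of them. Its 3 RefSeq IDs were counted at 3 windows with log2 ratios of similar size. The start of H2-DMa, a histocompatibility gene on the opposite strand, lies 225 bases from a Brd2 start, so that their reads cannot be told apart in full. Brd3 had 596 scaled counts in TAC TSA, 558 in TAC Veh, 609 in Sham TSA and 579 in Sham Veh, from 482, 570, 677 and 630 reads, and no interval of its ratios excluded 0. The Brd2 to Brd3 ratio was 2.25 (2.02 to 2.51) in TAC TSA, 2.42 (2.2 to 2.68) in TAC Veh, 2.19 (2.00 to 2.41) in Sham TSA and 2.32 (2.11 to 2.55) in Sham Veh, and these intervals overlap.

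**Figure D3:**
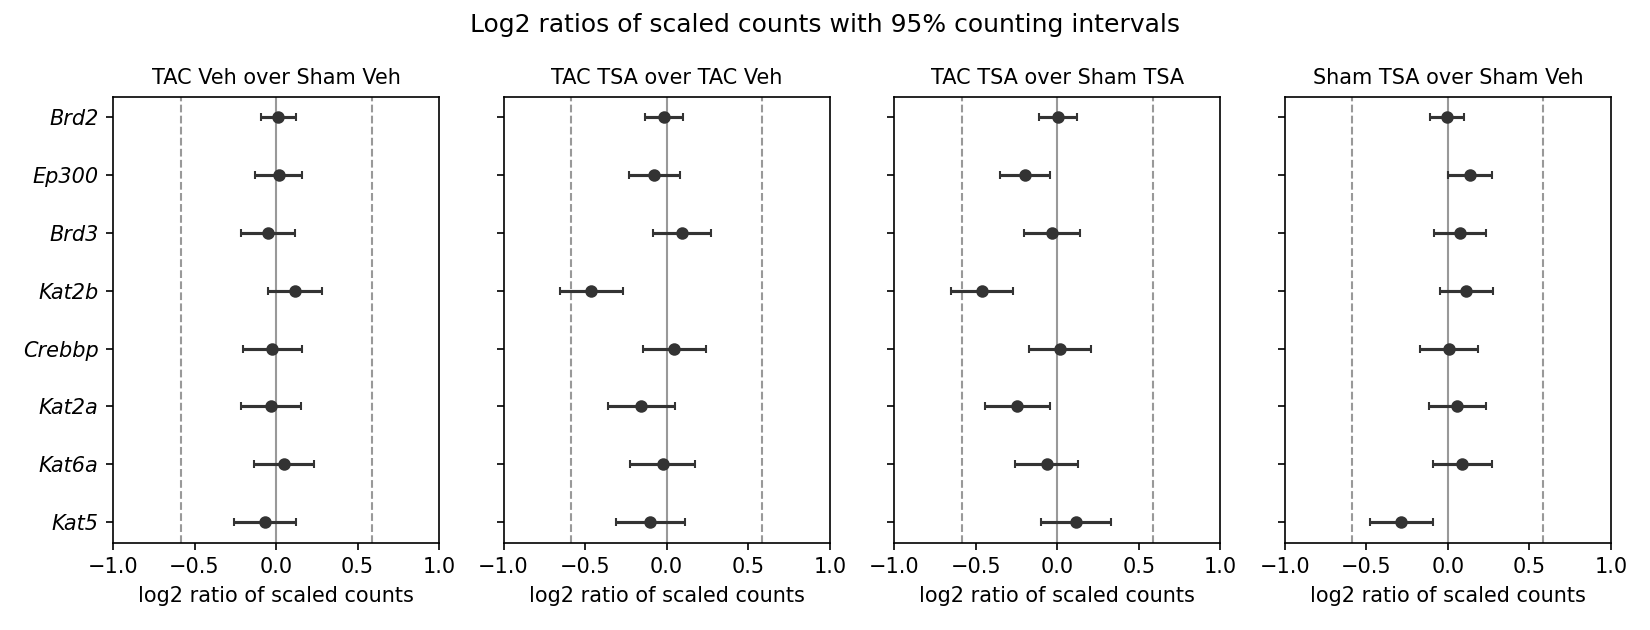
Log2 ratios of scaled counts for the 8 genes in the pairwise comparisons, with exact 95% intervals for counting error and dashed lines at 1.5-fold. The Kat2b interval lies below 0 in TAC TSA over TAC Veh and in TAC TSA over Sham TSA, at −0.46 in each, and the Kat5 interval lies below 0 in Sham TSA over Sham Veh.

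The first comparison the design implies, TAC Veh over Sham Veh, sets pressure load beside the sham operation under the solvent. All 8 have mean counts over 200, and the share of such stronger promoters is given beside that of all genes. None of the 8 was apart, against 2.51% of all genes and 0.453% of the stronger promoters. No interval excluded 0, against 13.0% of all genes and 16.0% of the stronger promoters, so that 0 of 8 is near the background. The log2 ratios of the 8 lay between −0.07 and 0.11. The median over the 8 was −0.01 and over all genes −0.00. TAC TSA over TAC Veh asks what TSA did under pressure load. None of the 8 was apart, against 4.4% of all genes and 0.849% of the stronger promoters. Kat2b, 1 of the 8, had an interval below 0, against 10.4% of all genes and 17.6% of the stronger promoters. The median over the 8 was −0.05, against 0.00 over all genes and −0.07 over the stronger promoters. A share of 1 in 8 is near that background, and Kat2b had the lowest log2 ratio of the 8.

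TAC TSA over Sham TSA compares the operations under TSA. None of the 8 was apart, against 7.4% of all genes and 0.14% of the stronger promoters. An interval below 0 was found for 3 (Kat2b, Kat2a and Ep300), against 13.8% of all genes and 24.4% of the stronger promoters. The excess over 24.4% amounts to about 1 gene of 8. Sham TSA over Sham Veh asks what TSA did without pressure load. None was apart, against 1.16% of all genes and 0.0165% of the stronger promoters, and 1 (Kat5) had an interval below 0, against 3.81% and 4.42%. In TAC TSA over Sham Veh none was apart, against 6.49% of all genes and 0.0577% of the stronger promoters. With so few strong promoters apart in any comparison, 0 of 8 is near the background throughout. These counts depend on the scaling. Set level on the receptor promoters, a step that moves the median of all genes in TAC TSA over Sham TSA by −0.60 on the log2 scale, 6 of the 8 were apart and lower there, against 52.6% of all genes and 81.2% of the stronger promoters. All 8 were so in TAC TSA over Sham Veh, against 57.1% and 86.7%, and 1 (Kat2b) in TAC TSA over TAC Veh, against 14.4% and 19.5%. These counts are near the background and are no result about the 8 genes. The comparisons share libraries and are not independent of one another.

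The ratio of all promoters depended on their strength in the comparisons that involve TAC libraries. In TAC TSA over Sham TSA promoters of the lowest decile by mean count had a median log2 ratio of 0.68, and those of the highest −0.13. The 8 genes lie in deciles 8 to 10, where the central 95% of promoters ran from −0.38 to 0.11 in decile 9. Kat2b, in decile 9, was below that range in TAC TSA over Sham TSA. In TAC TSA over TAC Veh the range in decile 9 was −0.35 to 0.22, and Kat2b at −0.46 was below it too.

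**Figure D4:**
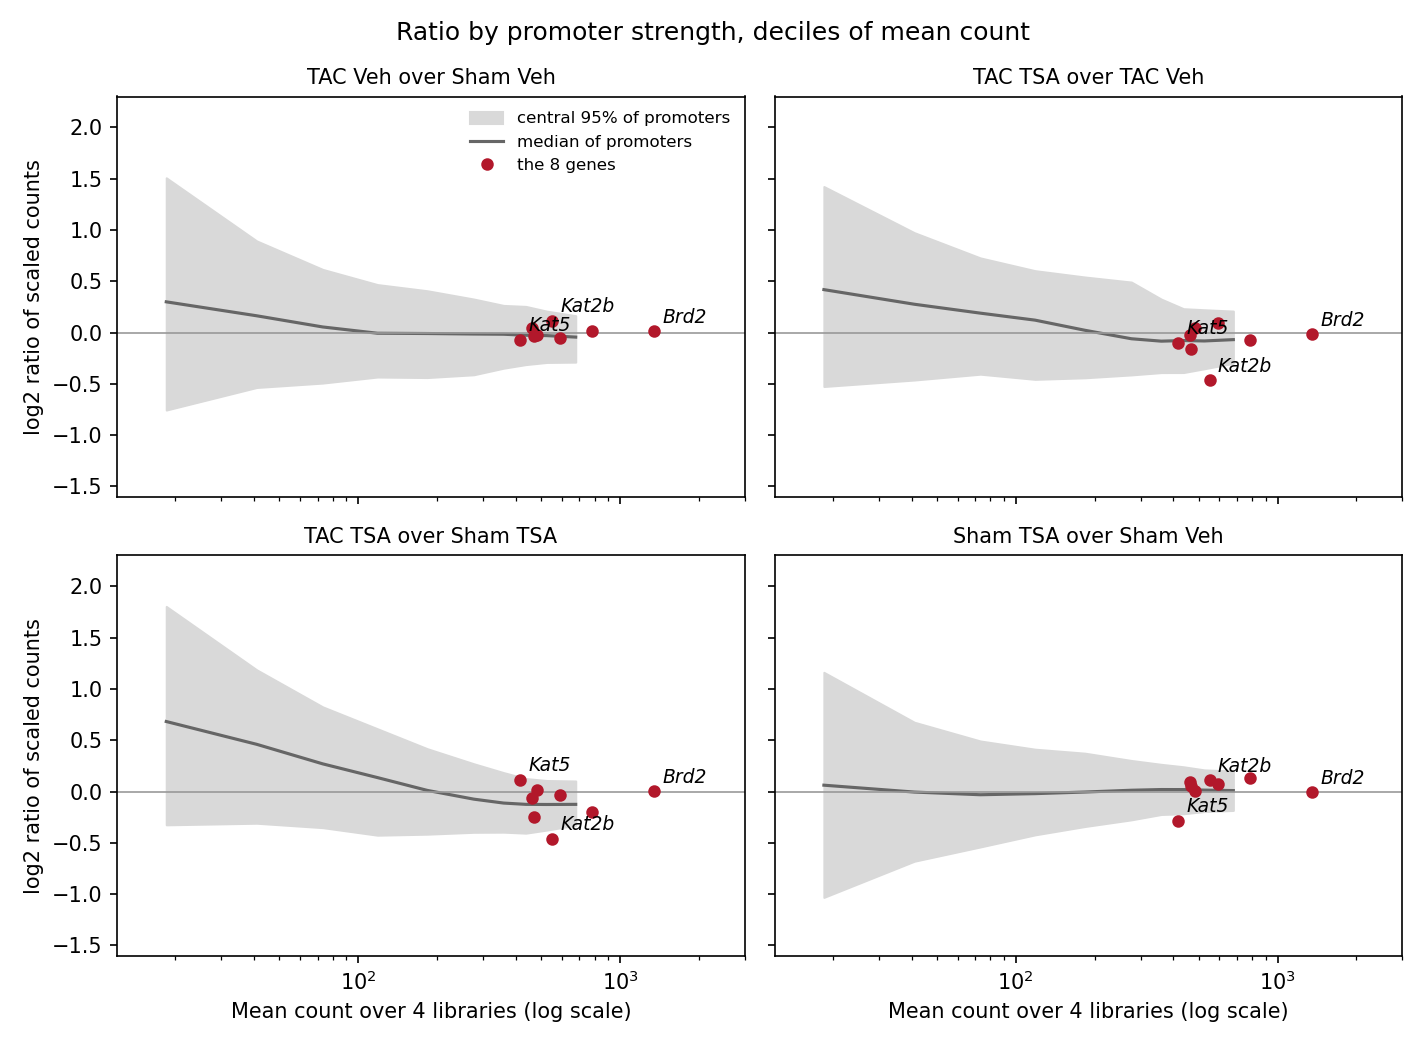
Log2 ratio of scaled counts against mean count over the 4 libraries (log scale) in 4 comparisons, with the median (line) and central 95% (shading) of promoters in each decile of mean count and the 8 genes as points. Kat2b lies below the shading in both comparisons with TAC TSA on top, and Kat5 in Sham TSA over Sham Veh.

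Whether the TSA ratio differed between TAC and Sham was described by the difference of the 2 log2 ratios, TAC TSA over TAC Veh minus Sham TSA over Sham Veh. For Kat2b it was −0.57 (−0.82 to −0.32), and for Ep300 −0.21 (−0.42 to −0.01). These 2 of 8 lie below 0, against 9.14% of all genes and 14.8% of those with a mean count of at least 200. The other 6 spanned 0, from −0.21 for Kat2a to 0.19 for Kat5. At the second Kat2b window the difference had the opposite sign, 0.60 (0.06 to 1.14). Over all genes, 7.08% had an interval above 0. Promoters in the decile of mean count that holds this weaker window had a median log2 ratio of 0.12 in TAC TSA over TAC Veh, with a central 95% from −0.46 to 0.60, whereas strong promoters had medians below 0. The Ep300 interval rests on the scaling. It included 0 with DESeq2 size factors, at −0.20 (−0.41 to 0.00), with total count scaling, at −0.16 (−0.37 to 0.04), with loess, at −0.14 (−0.35 to 0.06), and with scaling on genes of mean count 200 or more, at −0.13 (−0.33 to 0.08). With loess the Kat5 interval lay above 0 instead, at 0.29 (0.01 to 0.57).

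An additive model of surgery and drug over all 4 libraries, with 1 residual degree of freedom, gave the only test between conditions (edgeR quasi-likelihood test, Benjamini-Hochberg adjustment over 22835 genes). It called 0 of the 8 for either factor at an adjusted p of 0.05. Over all genes, surgery was called at 0.0131% in the higher and 0.0219% in the lower direction, and drug at 0.206% in the higher and 0.00876% in the lower direction. For surgery the adjusted p of the 8 ran from 0.626 (Kat2b, log2 fold change −0.16) to 0.995 (Crebbp, −0.00), and for drug it was 1.00 for each. The smallest unadjusted p in edgeR was 0.0760, for Kat5 and drug (log2 fold change −0.20). At an unadjusted p under 0.05, 0 of the 8 passed in edgeR, DESeq2 or limma-voom. Over all genes 9.32% passed for surgery in edgeR, 9.39% in limma-voom and 0.206% in DESeq2, and for drug 4.27%, 4.19% and 0.267%, so that 0 of 8 is near the background. The model leaves a gene's own interaction out of its fold change, so the TSA ratios of Kat2b in TAC (−0.46) and Sham (0.11, −0.05 to 0.27) were averaged.

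Lists of genes that work with these proteins, also chosen with earlier results of these data known, were described by the same counts. Of 16 other acetyltransferases and 43 subunits of acetyltransferase complexes, 0 were apart in TAC Veh over Sham Veh, TAC TSA over TAC Veh, TAC TSA over Sham TSA and Sham TSA over Sham Veh. The median log2 ratio of TAC TSA over TAC Veh was −0.06 and −0.05 for these lists, beside −0.05 for the 8 genes. Of 30 other bromodomain and YEATS readers, Brdt, the testis BET protein, was the member apart, on 60 reads in TAC TSA and 49 in Sham TSA (log2 ratio 0.75, 0.18 to 1.33) and on 49 in Sham TSA and 73 in Sham Veh (−0.61, −1.16 to −0.06). Of 24 BET partners and elongation factors 0 were apart. In the 4 comparisons, in the order given above, 2.51%, 4.4%, 7.4% and 1.16% of all genes were apart. Of the stronger promoters 0.453%, 0.849%, 0.14% and 0.0165% were. Beside the shares of the stronger promoters, the counts of 0 are near the background and are no result about these lists.

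Of 24 DNA-binding and coactivator partners of p300 and CBP in heart, 3 were apart in both comparisons with the TAC Veh library. Over all genes the share was 4.4% in TAC TSA over TAC Veh and 2.51% in TAC Veh over Sham Veh. Nkx2-5, 1 of the 3, is also among the 10 cardiomyocyte markers. The median log2 ratio of these markers was 0.73 in TAC TSA over TAC Veh and −0.60 in TAC Veh over Sham Veh. Tbx5, a cardiac T-box factor, was at 0.95 (0.67 to 1.23) in TAC TSA over TAC Veh and −0.81 (−1.09 to −0.55) in TAC Veh over Sham Veh. Myocd, a coactivator of muscle genes, was at 0.79 and −0.69, and the homeobox factor Nkx2-5 at 0.78 and −0.64. Both comparisons use the TAC Veh library. Ep300, their coactivator, was at −0.08 and 0.02 in the same comparisons. Mef2c was apart on few reads, with 40 in TAC TSA and 32 in Sham TSA (0.78, 0.07 to 1.5) and 32 in Sham TSA and 50 in Sham Veh (−0.68, −1.36 to −0.01). In the additive model Tbx5 was called for drug (log2 fold change 0.55, edgeR adjusted p = 0.00863). DESeq2 called 0 of 22835 genes for drug, so the call of Tbx5 was not shared by that tool.

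**Figure D5:**
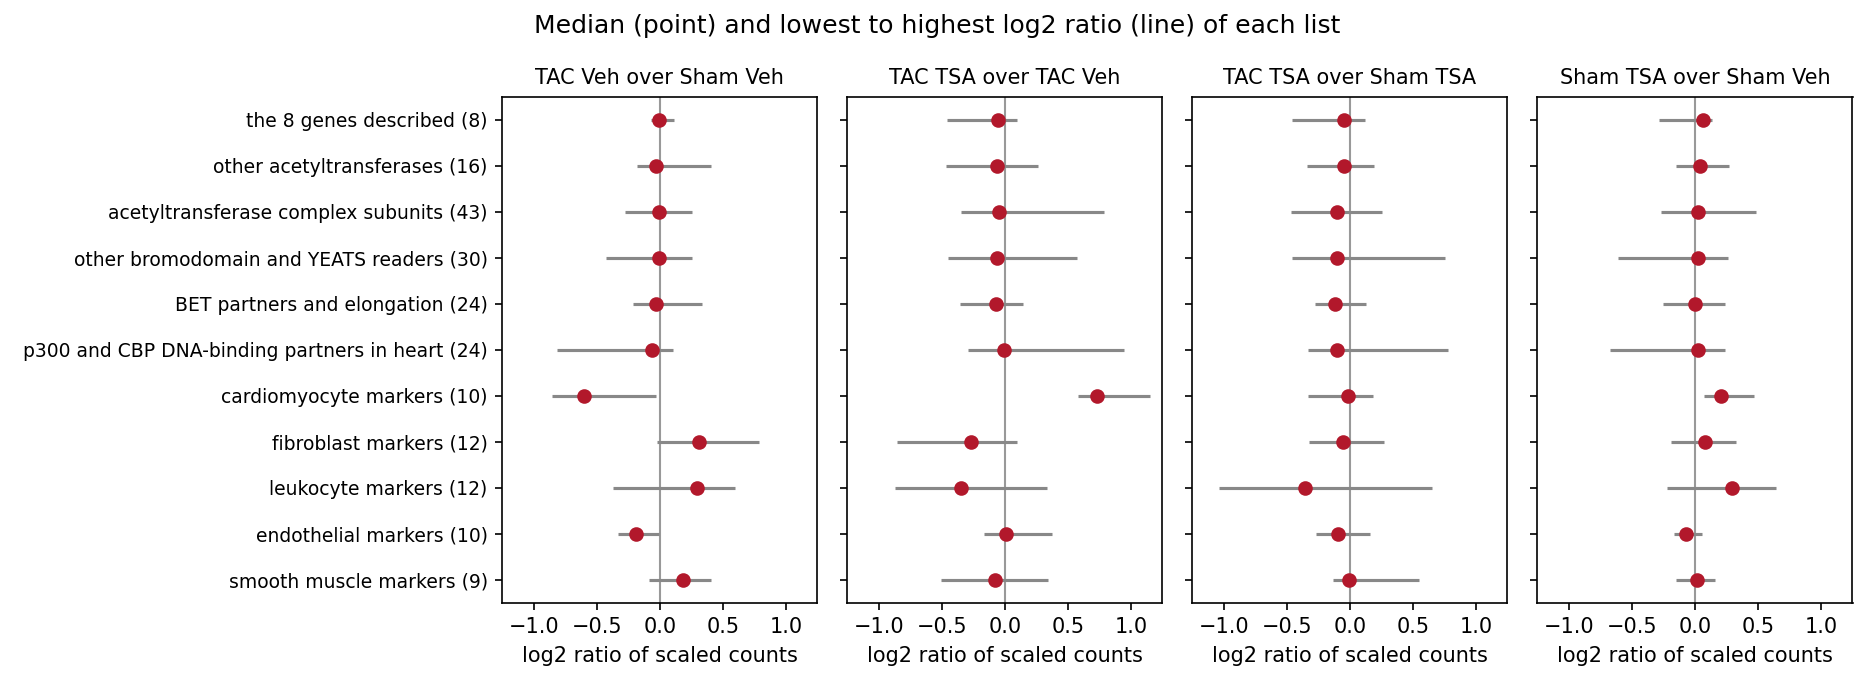
Median (point) and lowest to highest log2 ratio of scaled counts (line) of the 8 genes, of the lists set beside them and of cell type markers, with the number of genes in brackets and 1 panel per comparison. The medians of the acetyltransferase and reader lists lie near 0 in each panel, whereas the cardiomyocyte markers lie lower in TAC Veh over Sham Veh and higher in TAC TSA over TAC Veh.

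Cell type markers moved between the same libraries. The summed scaled count of 10 cardiomyocyte markers was 4365 in TAC TSA, 2556 in TAC Veh, 4438 in Sham TSA and 3798 in Sham Veh, with none of the 10 at 0. That of 12 leukocyte markers was 1708 in TAC TSA, 2075 in TAC Veh, 2145 in Sham TSA and 1813 in Sham Veh, and that of 12 fibroblast markers 2446, 2931, 2521 and 2411 in the same order. For 10 endothelial markers it was 5455, 5385, 5790 and 6029, and for 9 smooth muscle markers 2059, 2263, 2025 and 2057. The cardiomyocyte sum was lowest in TAC Veh, whereas Kat2b and the leukocyte sum were lowest in TAC TSA. The leukocyte markers did not move together. In TAC TSA over Sham Veh their log2 ratios ran from −0.59 to 0.68, with a median of −0.03, and Kat2b was at −0.35. The part of cell composition in the Kat2b value was not tested.

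For the 3 of the 8 genes with the widest range, the 3 most similar promoters were sought among 12123 other genes whose mean count reached 200, by Euclidean distance between log2 scaled counts centred over the 4 libraries. For Kat2b they were Zfp512 (distance 0.00979), Mier3 (0.0213) and the microRNA gene Mir7086 (0.0400). Zfp512 had 182 scaled counts in TAC TSA, 252 in TAC Veh, 251 in Sham TSA and 233 in Sham Veh, the same order of high and low libraries as Kat2b. For Kat5 they were Sik1 (0.0165), Cinp (0.0166) and Tecpr2 (0.0173), and for Kat2a Alkbh8 (0.00916), Tmem39a (0.0109) and Timm29 (0.0118). With 4 points per profile and that many candidates, a close match is a description of these libraries.

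Across 14391 genes with a single start, promoters with more CpGs had higher counts, with a Spearman rho of 0.701 across genes, which are not independent replicates. The median mean count was 59.8 below 10 CpGs, 344 at 10 to 24 and 439 at 25 or more. Kat2b, at 11 and 6 CpGs, had a mean scaled count of 539 at its main window, and Crebbp, at 49 CpGs, had 479, so that the order of these genes did not follow their CpG number.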

How the data were processed

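Acetylated histone H3 was profiled by ChIP-seq in 4 libraries, 1 per group. Fixation was 10 minutes in 1% formaldehyde, per the labels' protocols, and fragments of about 250 bp were amplified over 15 PCR cycles. The table deposited by the authors holds unnormalised whole-number read counts, 1 row per RefSeq ID. The mm9 build, BWA 0.5.9 and MACS 1.4.1 are listed without a role in the submitters' processing notes. Nothing in the sources used here states the promoter window, the treatment of duplicate reads or an input subtraction. The 6 deposited region lists were not used here, and 0 columns of per-sample values were left unused.

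Of 31594 IDs, 31115 (98.5%) matched a symbol in a GRCm38.p6 table used for names only. The 479 others held 1.11% of counts and were left out. Genes whose mean count reached 10 were scaled with TMM (edgeR 4.0.16, R 4.3.3). Pairwise log2 ratios carry exact 95% conditional (Clopper-Pearson) intervals, and differences of ratios normal ones. PCR reads without molecular identifiers are not independent molecules, so all intervals cover counting error only. The additive model used edgeR's quasi-likelihood test, with DESeq2 1.42.0 and limma-voom (limma 3.58.1) as alternatives. The p-values of the model test the surgery or drug effect, with the departure of 4 libraries from additivity as the measure of error. They do not measure the spread between animals. The scripts were tested on simulated data. No pair of libraries held identical values. Python 3.11.15 with pandas 2.3.3, numpy 2.4.6, scipy 1.17.1 and matplotlib 3.10.9 did the rest.

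The 8 genes and all lists were chosen with earlier results of these data known. Among the other lists, the rule named up to 3 promoters per list and comparison that were apart or past the adjusted threshold. Alternatives were other scalings (DESeq2 size factors, total count, loess on mean count, receptor promoters), other filters (none, or a mean count of at least 200), the ID with the lowest mean count, other call rules, and the other tools.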

Additional observations from a re-analysis of the deposited data

Results flagged for a closer look

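For 3 promoter windows the log2 ratios of TSA over vehicle in TAC and in Sham had opposite signs. The interval of their difference excluded 0 for counting error. Among the ratios themselves, the interval excluded 0 for Kat2b in TAC, and the others spanned 0. With 1 library per group the difference between conditions was not tested. For Kat2b the difference of the TSA ratios, TAC minus Sham, was −0.57, from −0.46 in TAC and 0.11 in Sham. For the second Kat2b window, NM_001190846, it was 0.60, the opposite sign, from 0.38 in TAC and −0.22 in Sham, on 98 reads in TAC TSA and 95 in TAC Veh. An interval above 0 was found for 7.08% of all genes. An interval below 0, as for Kat2b and Ep300, was found for 9.14% of all genes and 14.8% of those with a mean count of at least 200. Promoters in the decile of mean count of NM_001190846 had a median log2 ratio of 0.12 in TAC TSA over TAC Veh. For Ep300 it was −0.21, from −0.08 in TAC and 0.14 in Sham, with an interval that included 0 under 4 other scalings.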

How the results depend on the processing

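No paired analysis was possible because each group had 1 library, and no replicate could be left out. Scaling to receptor promoters made the largest changes. For TAC Veh over Sham Veh it shifted the all-gene median by −0.24 and put the summed count of the 8 genes at a log2 ratio of −0.24 (0.01 with TMM). For TAC TSA over TAC Veh the shift was −0.38 and the sum −0.46 (−0.07 with TMM), for TAC TSA over Sham TSA −0.60 and −0.69 (−0.10), and for TAC TSA over Sham Veh −0.63 and −0.70 (−0.07). With that scaling 1 gene was apart for TAC TSA over TAC Veh, 6 for TAC TSA over Sham TSA and 8 for TAC TSA over Sham Veh, where TMM gave 0. Over all genes 14.4%, 52.6% and 57.1% were apart and lower with it, and of the stronger promoters 19.5%, 81.2% and 86.7%. Of the differences of differences, 7 excluded 0 instead of 2. With that scaling 47.2% of all genes and 77.9% of the stronger promoters lay below 0. These counts of the 8 genes are thus near the background.

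With total count scaling the summed log2 ratio was −0.027 for TAC TSA over Sham TSA and −0.0056 for TAC TSA over Sham Veh. With scaling on genes of mean count 200 or more it turned to 0.00023 for TAC TSA over TAC Veh, 0.017 for TAC TSA over Sham TSA and 0.035 for TAC TSA over Sham Veh. The sum was not computed with loess. A fold limit of 1.2 made 1 gene apart and lower in each comparison other than TAC Veh over Sham Veh. Over all genes 6.24% were so in TAC TSA over TAC Veh and 7.27% in TAC TSA over Sham TSA. The share was 2.21% in Sham TSA over Sham Veh and 4.58% in TAC TSA over Sham Veh. Among genes whose mean count reached 200 the shares were 9.88%, 12.1%, 1.39% and 7.81% in the same order. The interval alone made 3 genes lower for TAC TSA over Sham TSA, against 13.8% of all genes and 24.4% of the stronger promoters. It made 1 lower for TAC TSA over TAC Veh (against 10.4% and 17.6%) and 1 for Sham TSA over Sham Veh (3.81% and 4.42%). For TAC TSA over Sham Veh it also made 1 lower, against 10.5% and 18.9%. The differences of differences that excluded 0 numbered 1 with DESeq2 size factors, with total count scaling and at a mean count of at least 200, each time without Ep300. With loess they numbered 2, with Kat5 in place of Ep300. The Kat2b ID with the lower count turned its ratio to 0.38 for TAC TSA over TAC Veh, 0.22 for TAC TSA over Sham TSA and 0.0045 for TAC TSA over Sham Veh, and its difference of differences to 0.59. The cause of these changes was not tested. Over all genes, loess changed the split of promoters apart in TAC TSA over Sham TSA to 189 higher and 301 lower, against 1643 and 47. DESeq2 and limma-voom called 0 of the 8 genes. Over all 22835 genes DESeq2 called 0 for either factor, so its count for the 8 carries no information. In limma-voom 0.0175% were called higher and 0.0175% lower for surgery, and 0.158% higher and 0.0131% lower for drug. Its 0 of 8 is thus near the background.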
